A study of Rattus norvegicus with 6 samples.

Results

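The granin family genes of the rat pituitary gland were examined in RNA-seq libraries of prenatally nicotine-exposed and control rats. The members were 7 genes chosen by name: Chga, Chgb, Scg2, Scg3, Scg5, Vgf and Pcsk1n, out of 33294 gene symbols in the count files. All 7 passed the filter on low counts, as did 17292 genes in all. Chga was put forward because of its difference in these same libraries, so its values are given as a description, without a test. The other 6 members were listed because they belong to the family. The members and the gene lists used below were chosen with earlier results of these data known. Their p-values and counts are therefore not independent of these libraries.

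Pituitary RNA came from 11-week-old male Sprague-Dawley offspring of dams that had received nicotine tartrate (6 mg/kg per day) from an osmotic pump under the skin during pregnancy (3 libraries), or of dams whose pumps held saline (3 libraries). The study calls the libraries biological replicates, and the number of litters behind them is not given in the sources used here, so the p-values measure the spread between these libraries. Totals lay between 46239801 and 85977002 counts in the nicotine group and between 28318383 and 54309256 counts in controls. The read numbers that the study lists for the same library names run the other way, with fewer reads in the nicotine than in the control library of every replicate number. Listed read numbers and deposited totals keep a near-constant ratio only when the group names of one of them are exchanged, so the names may be swapped in that list or in the deposited samples, and which of these holds cannot be told apart here. The groups here follow the labels of the deposited samples. If those were swapped, every difference below would have the opposite sign.

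Although the extraction text in the labels describes testes, the libraries held pituitary RNA. Gh1, the growth hormone gene, lay between 52429 and 115788 CPM in the 6 libraries, while 0 of 5 testis germ cell genes passed the filter and none of them exceeded 3 counts in a library. Levels are given as CPM, counts per 1000000 after TMM normalization, which scales each library for its composition. CPM were not divided by transcript length, so levels are compared between libraries and not between genes. In whole glands, fewer cells of a type and less RNA per cell cannot be told apart.

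Granins are acidic, soluble proteins that are stored with hormones in the dense core granules of endocrine cells and neurons. They aggregate in the trans-Golgi network, help to form the granules, and are cut at pairs of basic residues into peptides that are released with the hormone. Chga and Chgb encode the chromogranins A and B, and Scg2 encodes secretogranin II, the precursor of secretoneurin. Catestatin, a fragment of chromogranin A, is known as an inhibitor of nicotinic acetylcholine receptor signalling. Scg3 encodes a granin that binds chromogranin A and the granule membrane. The related proteins act on the enzymes that cut hormone precursors: Scg5 encodes 7B2, the chaperone of prohormone convertase 2, and Pcsk1n encodes proSAAS, an inhibitor of prohormone convertase 1. Vgf encodes a precursor of neuropeptides that is induced by growth factors.

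Promoter sequences were taken from RefSeq, assembly GRCr8, and 6 of the 7 members matched, all but Chga. The cyclic AMP response element (CRE), TGACGTCA, reads the same on both strands and was found in the windows of Scg2 and Vgf. These windows run from 250 bases before to 50 bases after the annotated start, and 1.83% of all 33469 windows held the element. Its first 5 bases, TGACG, here called the short CRE, or their reverse complement were found in 4 of the 6 windows, those of Scg2, Scg3, Scg5 and Vgf, against 21.2% of all windows. Each full CRE also contains the short CRE on both strands. The 150 bases before the start of these 4 genes are shown because their windows hold the CRE or short CRE. They are given 5′ to 3′ on the gene's strand with the CRE or short CRE in capitals. No relation between a motif and the levels given below was tested.
Scg2, chr9:88256867-88257016, minus strand: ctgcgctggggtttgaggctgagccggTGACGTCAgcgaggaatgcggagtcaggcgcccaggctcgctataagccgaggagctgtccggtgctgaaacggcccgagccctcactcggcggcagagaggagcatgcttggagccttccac
Vgf, chr12:25277021-25277170, minus strand: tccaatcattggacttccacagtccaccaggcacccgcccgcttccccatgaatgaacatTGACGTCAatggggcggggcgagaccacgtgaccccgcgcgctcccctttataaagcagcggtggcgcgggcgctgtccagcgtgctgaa
Scg3, chr8:85322485-85322634, minus strand: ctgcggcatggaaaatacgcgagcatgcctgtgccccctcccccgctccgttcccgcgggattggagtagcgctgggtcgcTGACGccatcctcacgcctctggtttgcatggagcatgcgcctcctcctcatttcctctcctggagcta
Scg5, chr3:121042796-121042945, minus strand: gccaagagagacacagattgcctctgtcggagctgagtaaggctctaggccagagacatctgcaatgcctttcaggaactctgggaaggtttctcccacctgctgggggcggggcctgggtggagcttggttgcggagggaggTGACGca
The CRE lay 123 to 116 bases before the start in Scg2 and 90 to 83 bases before it in Vgf. Of the 6 windows, that of Vgf alone also held a TATA box (TATAAA, either strand), found in 14.2% of all windows, and the E-box CACGTG, found in 6.42%. The GC box GGGCGG or its reverse complement was in 4 windows, those of Chgb, Scg5, Vgf and Pcsk1n, against 33.1% of all. A match describes the letters in the window and is not a measured binding site.

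Chga was the member in which the groups lay furthest apart. Its level was 1773, 1896 and 1973 CPM in nicotine replicates 1, 2 and 3, and 1190, 1214 and 1318 CPM in control replicates 1, 2 and 3. The groups did not overlap, and the lowest nicotine library was 1.35 times the highest control library. The nicotine mean was 1881 ± 101 CPM (SD, n = 3) against a control mean of 1241 ± 67.7 CPM (SD, n = 3), which gave a log2 fold change of 0.60 with an SE of 0.22. Libraries without overlap were found in 6.12% of all genes tested in this direction and in 11.3% in either direction, and since Chga was chosen on this difference, nothing is read from its place among them. The SD within groups was 0.0779 on the log2 CPM scale, a value that the choice of Chga for separate groups also favours. Leaving out single libraries gave log2 fold changes of Chga between 0.56 and 0.65. The lowest count of Chga in a library was 32232, so counting error was at most 0.557% of the value.

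Chgb, the gene of chromogranin B, was also above all controls in each nicotine library, but by a narrow margin and with 1 library far above the rest. Nicotine replicates 1, 2 and 3 were at 1577, 1601 and 2620 CPM, and control replicates 1, 2 and 3 at 1281, 1483 and 1518 CPM. Replicates 1 and 2 of the nicotine group thus lay just above the controls, with the lowest nicotine library at 1.04 times the highest control. The nicotine mean was 1933 ± 595 CPM (SD, n = 3) and the control mean 1427 ± 128 CPM (SD, n = 3). In edgeR the log2 fold change of 0.44 (SE 0.27, 95% interval -0.15 to 1.02) had an adjusted p of 0.827, and without nicotine replicate 3 it was 0.16 (adjusted p = 0.890). The difference did not pass the test, and its interval includes 0.

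Scg2, the gene of secretogranin II, had nearly equal means in the groups. It was at 3786, 3394 and 3918 CPM in nicotine replicates 1, 2 and 3, and at 3905, 3748 and 3475 CPM in control replicates 1, 2 and 3. The ranges overlapped almost wholly. Nicotine libraries averaged 3699 ± 273 CPM (SD, n = 3) and control libraries 3709 ± 218 CPM (SD, n = 3). The log2 fold change of -0.0039 had a 95% interval from -0.61 to 0.60 in edgeR (adjusted p = 0.998), and its sign changed with the settings. Within groups Scg2 varied little between libraries (SD 0.0975 on the log2 scale), and 84 of the 1526 genes with a mean of at least 100 CPM had a smaller SD.

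Scg3, whose product ties chromogranin A to the granule membrane, showed no difference larger than the spread between replicates. Its levels were 296, 234 and 376 CPM in nicotine replicates 1, 2 and 3 and 263, 281 and 219 CPM in control replicates 1, 2 and 3. The groups overlapped, with the highest value in nicotine replicate 3 as for Chgb. The log2 fold change of Scg3 in edgeR was 0.25 (SE 0.20, 95% interval -0.20 to 0.70, adjusted p = 0.843). It was 0.061 without nicotine replicate 3, 0.15 without control replicate 3 and 0.40 without nicotine replicate 2.

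Scg5 was the member whose nicotine libraries all lay below the controls. Nicotine replicates 1, 2 and 3 were at 974, 760 and 988 CPM, and control replicates 1, 2 and 3 at 1053, 1002 and 1045 CPM. Non-overlap in this direction was found in 5.14% of all genes tested. The controls were close together, with an SD of 2.63% of their mean, and nicotine replicates 1 and 3 lay just under them. The log2 fold change of Scg5 in edgeR was -0.19 (SE 0.20, 95% interval -0.63 to 0.26, adjusted p = 0.868), and without nicotine replicate 2 it was -0.084.

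Pcsk1n, the gene of proSAAS, overlapped between the groups through 1 control library. It was at 1054, 911 and 1071 CPM in nicotine replicates 1, 2 and 3 and at 675, 689 and 1190 CPM in control replicates 1, 2 and 3. Control replicate 3 was the highest of the 6 libraries, and the other controls were the lowest. The log2 fold change of Pcsk1n in edgeR was 0.25 (SE 0.25, 95% interval -0.31 to 0.81, adjusted p = 0.858). It was 0.57 without control replicate 3, 0.11 without control replicate 1 and 0.12 without control replicate 2. Control replicate 3 was also the library with the most Pomc and Pcsk2 RNA, as given below.

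Vgf had the fewest counts and the widest spread of the members. Its levels were 29.0, 19.95 and 109 CPM in nicotine replicates 1, 2 and 3, and 35.6, 52.6 and 44.1 CPM in control replicates 1, 2 and 3. The nicotine group held both the 2 lowest libraries and the highest. The SD was 93.0% of the mean after nicotine and 19.3% in controls. In edgeR the log2 fold change of Vgf was 0.25 (SE 0.49, 95% interval -0.83 to 1.34, adjusted p = 0.932), and it turned to -0.85 without nicotine replicate 3 (adjusted p = 0.407). It was 0.63 without nicotine replicate 2, 0.54 without nicotine replicate 1, 0.40 without control replicate 2 and 0.12 without control replicate 1. With the replicate number as a block, it was -0.14.

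**Figure D1:**
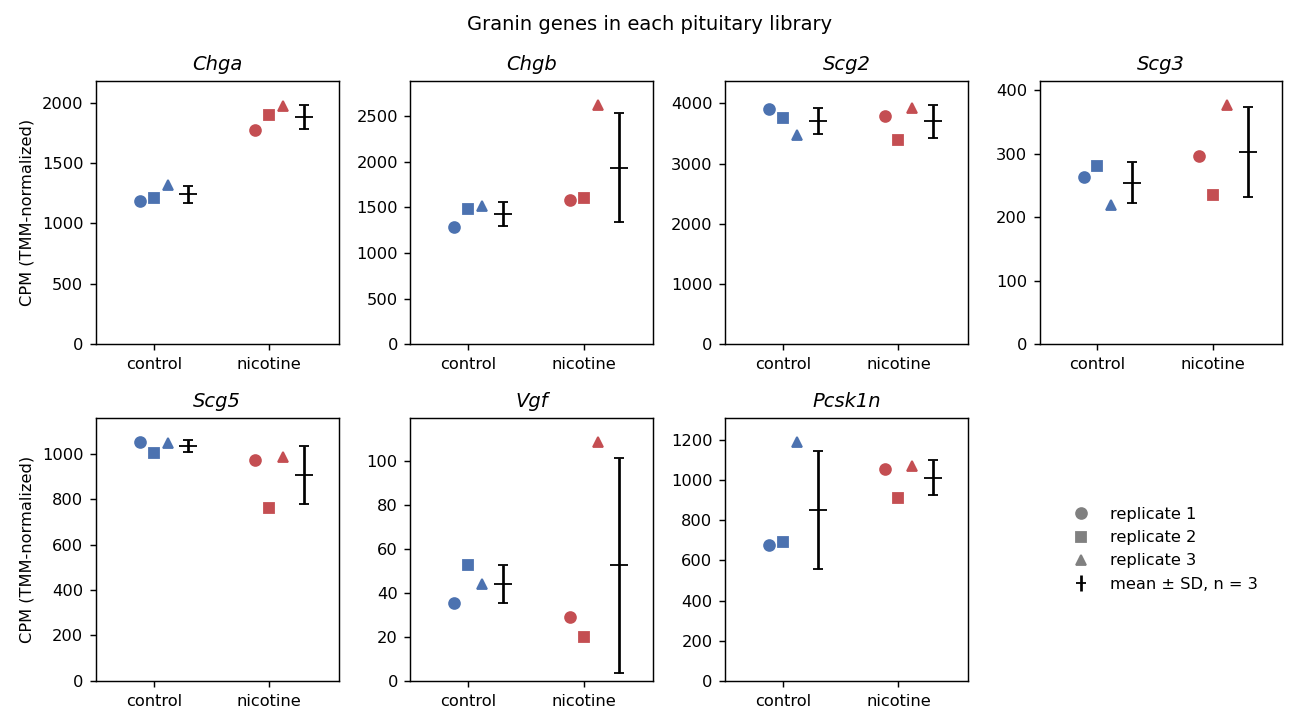
Level of each of the 7 granin genes in CPM (vertical axes, each from 0) in the 3 control and 3 nicotine libraries, with the replicates as circle, square and triangle and the mean ± SD (n = 3) in black. The groups do not overlap for Chga, Chgb and Scg5, and nicotine replicate 3 (triangle) stands far above the other libraries for Chgb, at 2620 CPM, and for Vgf, at 109 CPM.

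Over the 6 members other than Chga, edgeR called 0, where a call needed a fold change above 1.5 and an adjusted p below 0.1. At an unadjusted p below 0.05 it found 0 of the 6, where 6.14% of all genes tested passed, 3.13% higher and 3.01% lower after nicotine. With the same thresholds edgeR called 0 genes, or 0%, over the whole table. DESeq2, the tool named in the study's methods, called 0 of the 6 (adjusted p from 0.823 to 1.00) and 61 genes, or 0.339%, overall. In sign, 4 of the 6 were higher and 2 lower after nicotine, where 8824 of all 17292 genes were higher. Libraries did not overlap for 1 higher member, Chgb, and 1 lower member, Scg5, against 6.12% and 5.14% of all genes tested. The median log2 fold change of all 7 members was 0.25, against 0.0070 over all genes tested. It rested on single libraries, at 0.061 without nicotine replicate 3, 0.12 without control replicate 1 and 0.40 without nicotine replicate 2.

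**Figure D2:**
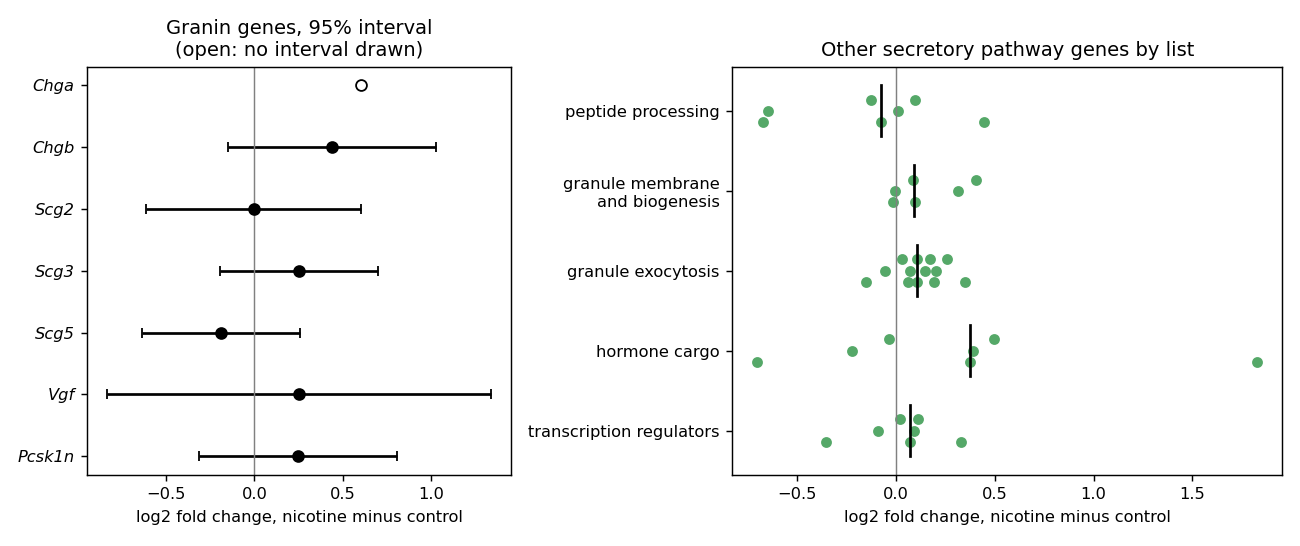
Left, log2 fold change (nicotine minus control) of the 7 granin genes with the 95% interval from edgeR; Chga is drawn open and without an interval because it was chosen on this difference. Right, log2 fold change of 40 other secretory pathway genes by list, each point a gene and each black line the list's median; the intervals of the 6 tested granin genes all include 0, and Lhb, at 1.83, is the point furthest to the right.

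The 7 genes together took up 0.967%, 0.945% and 1.06% of all counts in nicotine replicates 1, 2 and 3, and 0.804%, 0.825% and 0.899% in control replicates 1, 2 and 3. Chga alone made up 0.191 ± 0.0113% of the nicotine and 0.122 ± 0.0109% of the control counts (SD, n = 3). For the other 6 genes the share was 0.800 ± 0.0670% with nicotine and 0.720 ± 0.0392% without (SD, n = 3). These 6-gene shares overlapped between the groups, and their difference of 0.0802 percentage points was not past the threshold (exact two-sided permutation test, p = 0.2, where 3 libraries against 3 allow no p under 0.1).

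Ratios between 2 members within a library do not depend on how libraries are scaled to each other. The count of Chga was 0.468, 0.559 and 0.504 times that of Scg2 in nicotine replicates 1, 2 and 3, and 0.305, 0.324 and 0.379 times in control replicates 1, 2 and 3. Against Scg5 it was 1.82, 2.49 and 2.00 times in the nicotine libraries and 1.13, 1.21 and 1.26 times in the controls. Neither ratio overlapped between the groups, but both contain Chga, which was chosen for its difference, and so they describe that difference again and do not support it. The ratio of Chga to Chgb did overlap, at 1.12, 1.18 and 0.753 after nicotine and 0.929, 0.819 and 0.868 in controls. Nicotine replicate 3, the library with the most Chgb, had the lowest of these ratios. The ratios of Chga to Scg3, Vgf and Pcsk1n overlapped as well.

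Among the 6 members other than Chga there are 15 such ratios, and 3 of them did not overlap between the groups. All 3 had Scg5 as the denominator. Scg2 over Scg5 was 3.89, 4.46 and 3.97 in nicotine replicates 1, 2 and 3 and 3.71, 3.74 and 3.33 in control replicates 1, 2 and 3. Scg3 over Scg5 was 0.304, 0.308 and 0.381 after nicotine and 0.250, 0.280 and 0.209 in controls. Chgb over Scg5 was 1.62, 2.11 and 2.65 after nicotine and 1.22, 1.48 and 1.45 in controls. In each case the nicotine libraries held less Scg5 RNA relative to the other granin than the control libraries did. These 3 ratios share their denominator, were singled out after their values were seen, and were not tested. Scg5 itself did not overlap between the groups, so the 3 ratios in part describe that again. The share of such ratios among other pairs of genes was not computed, so nothing is read from the count.

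**Figure D3:**
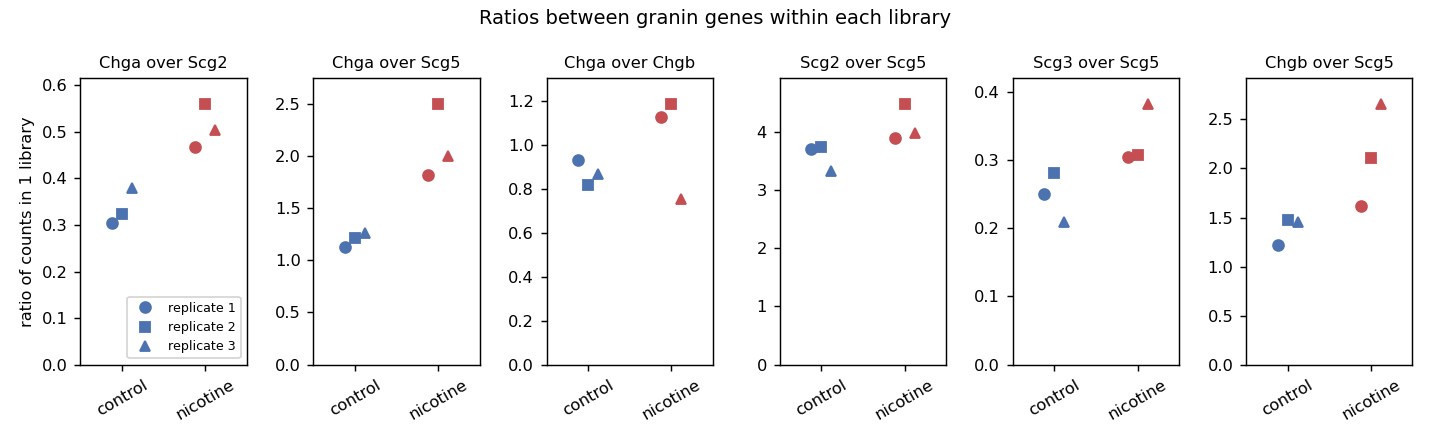
Ratio of the counts of 2 granin genes within each library (vertical axes, each from 0), by group, with the replicates as circle, square and triangle. Chga over Scg2 and Chga over Scg5, as well as the 3 ratios of another member to Scg5, do not overlap between the groups, while Chga over Chgb does; Chga was chosen for its difference, so its ratios are a description. Chga over Chgb ran from 0.753 to 1.18 after nicotine.

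Genes that act on granins or share the granule with them were counted from lists by role. Of 40 such genes, all tested, edgeR called 0 and DESeq2 called 0. At an unadjusted p under 0.05 in edgeR, 2 were higher and 1 was lower after nicotine, 3 of 40 against 6.14% of all genes. Those were Furin, Lhb and Pcsk2. The median log2 fold change over the 40 genes was 0.089. In sign 27 of the 40 were higher, against 8824 of all 17292 genes tested. All nicotine lay above all control libraries for 4 of the 40, against 6.12% of all genes tested. The 4 were Furin, a convertase, the exocytosis genes Rab3a and Syt7, and Lhb, of which the first 3 were named after their values were seen.

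The median log2 fold change of the 7 peptide processing genes was -0.078. Pcsk2, the prohormone convertase that 7B2 accompanies, was at 86.4, 136 and 119 CPM in nicotine replicates 1, 2 and 3 and at 140, 127 and 278 CPM in control replicates 1, 2 and 3. The log2 fold change of Pcsk2 in edgeR was -0.67 (SE 0.29, adjusted p = 0.806) and rested on control replicate 3, without which it was -0.22. Pcsk1, the convertase that proSAAS inhibits, averaged 173 ± 34.7 CPM with nicotine and 189 ± 16.2 CPM without (SD, n = 3). Cpe, which trims the basic residues left by the convertases, had a log2 fold change of 0.011, and Pam, which amidates peptides, one of 0.099. Neither passed the test (adjusted p = 0.996 and 0.948 in edgeR), and the sign of both changed when single libraries were left out.

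Granule membrane genes gave a median log2 fold change of 0.090 over 6 genes. Ptprn, which encodes a receptor-type phosphatase of the granule membrane, averaged 884 ± 425 CPM with nicotine and 713 ± 140 CPM without (SD, n = 3). Cyb561, which encodes a cytochrome of that membrane, averaged 161 ± 40.2 CPM and 151 ± 14.5 CPM (SD, n = 3). For both the sign turned when nicotine replicate 2, the highest library, was left out. The 13 exocytosis genes lay between log2 fold changes of -0.15 and 0.35, with a median of 0.11. Snap25, a component of the fusion machinery, averaged 224 ± 5.10 CPM with nicotine and 215 ± 5.78 CPM without (SD, n = 3). Cadps, which primes granules for release, averaged 67.9 ± 4.47 CPM and 66.5 ± 1.78 CPM (SD, n = 3). The 95% interval of the log2 fold change was -0.26 to 0.39 for Snap25 and -0.28 to 0.34 for Cadps, so changes of over 1.5-fold lay outside both.

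The hormones that fill the granules gave the widest range of values, with a median log2 fold change of 0.38 over 7 genes. Lhb, the beta subunit gene of luteinizing hormone, was at 216, 820 and 223 CPM in nicotine replicates 1, 2 and 3 and at 154, 75.6 and 125 CPM in control replicates 1, 2 and 3. The groups did not overlap, and the log2 fold change of Lhb in edgeR was 1.83 (SE 0.48, adjusted p = 0.760), or 0.89 without nicotine replicate 2. Fshb and Cga, the other gonadotropin subunit genes, had log2 fold changes of 0.38 and 0.49 (adjusted p = 0.841 and 0.825 in edgeR), or 0.0090 and 0.33 without nicotine replicate 2. For Gh1 the value was 0.39, for Prl -0.22, for Tshb -0.036 and for Pomc -0.70, with adjusted p from 0.854 to 0.990 in edgeR. Without nicotine replicate 2, Gh1 was at 0.091, and the signs of Prl and Tshb turned, to 0.022 and 0.33. Pomc reached 71827 CPM in control replicate 3 and lay between 20412 and 46403 CPM elsewhere. Without that library the log2 fold change of Pomc was -0.37.

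The 7 transcription factor genes known to act on granin genes had log2 fold changes between -0.35 and 0.33, with a median of 0.071. Rest, a repressor of neuronal and endocrine genes, averaged 5.83 ± 0.564 CPM with nicotine and 5.44 ± 1.31 CPM without (SD, n = 3). Creb1, whose product binds the CRE, averaged 26.9 ± 5.31 CPM and 28.7 ± 1.53 CPM (SD, n = 3). Insm1, the gene of a transcription factor of endocrine cells, averaged 21.7 ± 1.41 CPM and 20.03 ± 1.74 CPM (SD, n = 3). None of these 3 genes passed the test (adjusted p from 0.903 to 0.950 in edgeR).

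The genes whose pattern over the 6 libraries was most like that of Chga were Kif1a, Map1b, Map2k7, Actn4 and Epas1. Likeness was the root mean square difference between log2 CPM values, each centred on the gene's mean, among 1525 genes with a mean of at least 100 CPM. It was 0.120 for Kif1a, a kinesin motor gene, 0.129 for Map1b, a microtubule protein gene, and between 0.141 and 0.147 for the other 3. Since they were picked for likeness to Chga, their higher values in the nicotine group follow from the choice. The granins were further from it. Chgb ranked 85, Pcsk1n 217, Scg3 288, Scg2 422 and Scg5 968 among the 1525 genes, and Vgf was too low to be ranked.

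Markers of several cell types moved with the groups or with single libraries. The 4 gonadotroph genes, of cells in which chromogranin A is known to be abundant in the rat, summed to 708 to 1849 CPM after nicotine and 523 to 826 CPM in controls, with the highest sum in nicotine replicate 2. All 4 were higher in sign, 3 of them at an unadjusted p below 0.05 in edgeR. These 3, Lhb, Gnrhr and Nr5a1, had all nicotine above all control libraries, against 6.12% of all genes tested. Fshb overlapped between the groups. Without nicotine replicate 2 the log2 fold change was 0.59 for Chga and 0.89 for Lhb. With all 6 libraries Lhb was at 1.83, and it passed the test in neither fit (adjusted p = 0.760 with all libraries and 0.493 without that library, in edgeR). The groups did not overlap for Lhb, so a positive sign without that library was fixed in advance. Nothing is read from the values of Chga and Lhb. The 4 posterior lobe genes summed to 79.8 to 229 CPM after nicotine and 6.60 to 74.4 CPM in controls, all 4 higher at an unadjusted p below 0.05 in edgeR. The 5 fibroblast genes summed to 280 to 490 CPM and 567 to 767 CPM, all 5 lower at that p. Neither of these sums overlapped between the groups. At that p, 3.13% of all genes tested were higher and 3.01% lower. The lowest edgeR adjusted p in the gonadotroph, posterior lobe and fibroblast lists was 0.760, so none of these genes was called. The part of these cell types in the differences of Chga, Chgb and Scg5 was not tested.

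The remaining marker sums overlapped. The 4 red cell genes, all lower in sign and 3 of them at an unadjusted p below 0.05 in edgeR, summed to 3071 to 9690 CPM after nicotine and 7965 to 16197 CPM in controls. The 5 smooth muscle and pericyte genes, all higher in sign and 2 of them at that p, reached 200 CPM in nicotine replicate 3, the library with the most Chgb, Scg3 and Vgf RNA, against 37.4 to 59.4 CPM elsewhere. Tagln alone gave 138 of the 200 CPM. Myh11, Pdgfrb and Rgs5 were also highest in nicotine replicate 3, at 22.3, 17.4 and 20.1 CPM, while Acta2 was not. Acta2 was the single marker gene that DESeq2 called, at 2.74, 2.21 and 2.54 CPM in nicotine replicates 1, 2 and 3 and 0.258, 0.984 and 0.449 CPM in control replicates 1, 2 and 3 (adjusted p = 0.492 in edgeR). Its counts in control replicates 1, 2 and 3 were only 7, 52 and 17, so counting error reached 37.8% of the value. The thyrotroph genes Tshb and Trhr summed to 2274 CPM in nicotine replicate 3 and to 496 to 1421 CPM in the others. Tshb gave 2247 of the 2274 CPM. Trhr was at 26.6 CPM in nicotine replicate 3 and was highest in control replicate 1, at 42.1 CPM. The 4 corticotroph and melanotroph genes summed to 72017 CPM in control replicate 3, the library with the most Pcsk1n, and to 20581 to 46484 CPM in the others. Pomc gave 71827 of the 72017 CPM. Pax7 was also highest in control replicate 3, at 93.6 CPM. Tbx19 and Crhr1 were highest in nicotine replicate 2, at 85.4 and 36.3 CPM. The part of these cell types in the values of Chgb, Scg3, Vgf and Pcsk1n was not tested. The 5 endothelial genes summed to 150 to 251 CPM after nicotine and 124 to 163 CPM in controls, all 5 higher in sign and 3 at an unadjusted p below 0.05 in edgeR. The 5 macrophage genes summed to 119 to 255 and 202 to 281 CPM, all 5 lower in sign and 1 at that p. The 4 neutrophil genes summed to 19.8 to 21.9 and 6.24 to 128 CPM, all 4 lower at that p, with control replicate 2 below the nicotine libraries. In the marker lists without such a count, 0 genes passed that p. Over all genes tested, 3.13% were higher and 3.01% lower at that p. In edgeR none of the marker genes was called, and the lowest adjusted p was that of Acta2, at 0.492. Sums of the 4 brain genes ran from 37.4 to 44.99 CPM and 30.7 to 107 CPM, and those of the 3 folliculostellate and stem cell genes from 124 to 170 and 115 to 136 CPM. Gh1 and Ghrhr, the somatotroph genes, summed to 52463 to 115859 and 52675 to 72114 CPM, and Prl, the lactotroph gene, lay at 17547 to 37706 and 25328 to 38038 CPM.

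**Figure D4:**
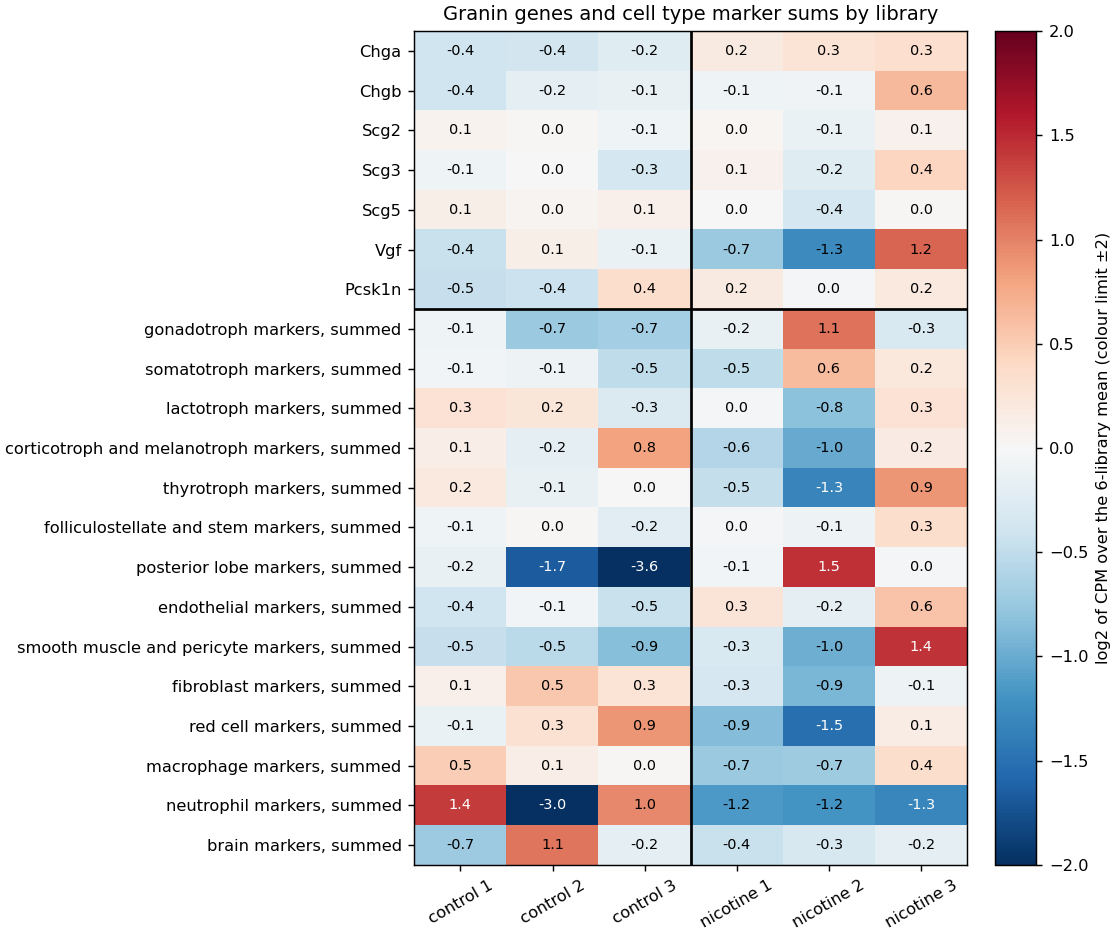
Each cell gives the log2 of a library's CPM over the mean of the 6 libraries, for the 7 granin genes (above the line) and for summed cell type markers (below it), with controls at left and nicotine at right; colours end at ±2. Scg2 stays close to its mean in all libraries, and the posterior lobe and fibroblast sums separate the groups in opposite directions. The Vgf and thyrotroph cells are both highest in nicotine replicate 3, where the thyrotroph sum is nearly all Tshb.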

How the data were processed

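Pituitary RNA of nicotine-exposed (3 libraries) and control rats (3 libraries) was sequenced as paired-end stranded libraries. Per the paper's methods and the labels, the authors mapped reads with HISAT2 2.1.0 to rn7 and counted them with featureCounts on the UCSC ncbiRefSeq annotation. The deposited values are whole-number counts per gene symbol, without normalization. The counting of reads or pairs, the strand setting and the handling of multi-mapped reads are not given in the sources used here. In GRCr8, 0 other annotated genes overlap a member.

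Counts were analysed in R 4.3.3 with edgeR 4.0.16 (filterByExpr, TMM, quasi-likelihood test, no covariate) and Benjamini-Hochberg adjustment over 17292 genes. Calls needed a fold change above 1.5 and an adjusted p below 0.1, the study's thresholds. Intervals are 95% t intervals from the same fit. Log2 CPM used a prior count of 2. DESeq2 1.42.0, other normalizations and filters, thinning, a replicate block and leaving out each library served as alternatives, and the fits were tested on simulated data. Replicates differed by more than sampling noise. The members and gene lists were chosen with earlier results of these data known. Genes named are the 7 members, 18 genes picked from the role lists for what they encode, and the 5 genes most like Chga; others were named after their values were seen.

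The lists were peptide processing, granule membrane and biogenesis, granule exocytosis, hormone cargo and transcription regulators, and 15 lists of cell type markers. Transcript lengths and protein sequences were not used here.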

Additional observations from a re-analysis of the deposited data

How the results depend on the processing

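The number of genes called over the whole table was 61 with DESeq2 (18 higher and 43 lower), 1 with library sizes alone, 2 without a filter on low counts, 1 after thinning every library to the smallest, 2 with the replicate number as a block, and 0 to 9 without single libraries, against 0 in the reported edgeR test. The most came without nicotine replicate 3, with 4 without control replicate 2 and 1 without nicotine replicate 2. Among the 6 granin genes other than Chga and the 40 pathway genes the number stayed at 0 under all alternatives. Nothing in the sources used here says that the replicate numbers pair the rats. The deviations of same-numbered libraries correlated at 0.03, -0.20 and -0.08, values that cannot show whether such rats were paired. Why the numbers of genes called differ was not examined, and the cause was not tested.

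Chga was at 0.59 to 0.65 on the log2 scale over the settings with all 6 libraries. Because it was chosen for its difference in these libraries, its kept direction is a description and gives no support. Among values with signs that turned, Scg2 was at 0.0017 with DESeq2, 0.043 with library sizes alone and 0.0084 without a filter. Vgf was at -0.14 with the replicate block, and Rest at -0.024 after thinning. Without single libraries, log2 fold changes ran from -0.047 to 0.046 for Scg2, -0.85 to 0.63 for Vgf, -0.87 to 0.33 for Tshb, -0.17 to 0.18 for Cpe, -0.17 to 0.22 for Pam, -0.15 to 0.56 for Ptprn, -0.14 to 0.22 for Cyb561, -0.036 to 0.058 for Cadps, -0.47 to 0.022 for Prl, -0.21 to 0.065 for Creb1 and -0.085 to 0.27 for Rest. The granin share without Chga differed by 0.0438 to 0.110 percentage points in these fits, and by 0.0955 with genes over 1% of the counts left out. Among the 7 members, counting error was largest for Vgf, at up to 3.22%, and among the other genes named by rule for Rest, at up to 8.11%.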

Other observations

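Crem, which encodes transcription factors that bind the CRE and is itself induced by cyclic AMP, stood apart in 1 library of each group. It was at 468 CPM in nicotine replicate 1 and 311 CPM in control replicate 2, and it lay between 75.1 and 104 CPM in the remaining 4. Crem was named after its values were seen.

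Vgf and Tshb took the same extremes. Both were highest in nicotine replicate 3, at 109 CPM for Vgf and 2247 CPM for Tshb, and lowest in nicotine replicate 2, at 19.95 CPM for Vgf and 480 CPM for Tshb. These are values of single libraries, and no relation between the genes was tested.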
